A study of Homo sapiens with 8 samples.

Results

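CHGA, CHGB, SYP, ENO2, NCAM1, INSM1, NELL2, CNTNAP2 and REST, 9 of the 58828 genes in the count tables, were described together as neuroendocrine and neuronal genes. They were chosen by symbol, with their measured counts in these libraries already known, so their values are a description and no test was run on them. The RNA came from 2 established human prostate cancer cell lines, 22RV1 and DU145, and the study asked how PAGE4, a cancer testis antigen, acts in cells under oxidative stress. Each line carried the empty TET vector or a doxycycline-inducible, HA-tagged PAGE4 construct, delivered by lentivirus with puromycin selection, and doxycycline was given to vector cells and PAGE4 cells alike. Each of these 4 cultures received PBS or H2O2, given as 200 mM for 12 h in the labels, although a figure legend of the study names a lower dose for another assay. The 8 conditions were sequenced once each, without replicates, and libraries are written as line, construct and treatment (22RV1 Vector PBS).

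Neuroendocrine cells of the prostate store peptides in dense-core granules, whose matrix holds the granins CHGA and CHGB, and they carry vesicle proteins such as synaptophysin (SYP), the enolase isoform ENO2 and the adhesion molecule NCAM1. INSM1 is a zinc-finger factor of neuroendocrine differentiation, CNTNAP2 is a contactin-associated adhesion protein of myelinated axons, and NELL2 is a secreted glycoprotein that binds the axon guidance receptor ROBO3. REST is the repressor that keeps neuronal genes silent in other cell types through the RE1 element and the RCOR1 and SIN3A corepressor complexes, and the splicing factor SRRM4 promotes a truncated REST transcript in neural and neuroendocrine cells. CHGA, SYP, NCAM1, INSM1 and ENO2 are used in pathology to recognise neuroendocrine prostate cancer.

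The promoters of CHGA, ENO2, CNTNAP2 and REST are shown first, because the AP-1 element and the cyclic AMP response element (CRE) are known end points of kinase signalling, and GGACAGC is the right-hand part of the RE1 element that REST binds. Each line gives the 250 bases before a RefSeq start site on GRCh38.p14, 5′ to 3′ on the strand of the gene, with the searched letters that were found in capitals. CHGA is at chr14:92922900-92923149 (CRE, then a TATA box), ENO2 at chr12:6914330-6914579 (AP-1), CNTNAP2 at chr7:146116551-146116800 (GGACAGC) and the second REST promoter at chr4:56908660-56908909 (AP-1, then GGACAGC), all on the plus strand.
CHGA: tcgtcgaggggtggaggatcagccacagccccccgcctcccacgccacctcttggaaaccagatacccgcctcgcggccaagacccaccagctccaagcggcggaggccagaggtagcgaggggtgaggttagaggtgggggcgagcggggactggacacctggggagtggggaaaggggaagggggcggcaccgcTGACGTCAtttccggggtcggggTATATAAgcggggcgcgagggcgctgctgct
ENO2: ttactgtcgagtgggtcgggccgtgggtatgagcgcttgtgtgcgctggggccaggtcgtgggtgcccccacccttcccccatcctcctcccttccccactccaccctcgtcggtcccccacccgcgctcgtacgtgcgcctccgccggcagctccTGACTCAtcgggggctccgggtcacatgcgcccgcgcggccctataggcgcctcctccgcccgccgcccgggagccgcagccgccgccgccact
CNTNAP2: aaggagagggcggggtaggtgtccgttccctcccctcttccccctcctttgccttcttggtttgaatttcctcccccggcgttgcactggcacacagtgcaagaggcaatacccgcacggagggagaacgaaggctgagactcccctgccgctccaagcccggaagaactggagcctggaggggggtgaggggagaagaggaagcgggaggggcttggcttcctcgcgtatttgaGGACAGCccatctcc
REST: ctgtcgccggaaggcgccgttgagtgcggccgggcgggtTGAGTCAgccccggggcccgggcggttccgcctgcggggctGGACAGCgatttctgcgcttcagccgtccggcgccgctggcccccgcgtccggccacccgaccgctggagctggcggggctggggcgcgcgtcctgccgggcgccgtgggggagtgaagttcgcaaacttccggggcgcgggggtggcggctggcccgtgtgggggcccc

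The search covered both strands of the window from 250 bases before to 50 after each start site. TGACGTCA (CRE) was found in CHGA at -54 to -47 from the start site, with TATATAA at -31 to -25. TGACTCA, a match to TGANTCA (AP-1), lay in ENO2 at -94 to -88, and TGAGTCA lay in the second REST promoter at -211 to -205. SYP held TGAATCA, another match, at 35 to 41 after its start site. GGACAGC was found in CNTNAP2 at -15 to -9 and in the second REST promoter at -170 to -164. The first REST promoter, at chr4:56907650-56907899, held no match to any searched motif. The left-hand part of the RE1 element, TTCAGCACC, was found in none of the promoters of these genes. Shares over the 35116 promoters in the table were 1.85% for TGACGTCA, 7.71% for TGANTCA, 6.03% for GGACAGC, 2.57% for TATATAA and 0.376% for TTCAGCACC. The absence of TTCAGCACC is therefore the usual case. A match is a description of the letters, not a bound site. The promoters of 5 of the 9 genes were in the table; those of CHGB, NCAM1, INSM1 and NELL2 were not used here.

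Total counts ran from 25482984 to 43310401 per library. PAGE4 had 0 or 1 read in each vector library and between 1001 and 1489 reads in the PAGE4 libraries. KLK3, the prostate-specific antigen of luminal prostate cells, had a mean normalised count of 443 in 22RV1 and 0.591 in DU145, and VIM, an intermediate filament gene of mesenchymal cells, 414 and 14253. TRPM8, another luminal marker, was near 0 in both lines, with 1.33 and 2.77, against its label as a 22RV1 marker. VIM was listed as a DU145 marker with S100A2, CD44 and LGALS1. S100A2 was also higher in DU145 (29.0 in 22RV1 and 469 in DU145). CD44 (4511 and 3898) and LGALS1 (3172 and 2318) were higher in 22RV1, against that label. Counts were divided by size factors computed over all 8 libraries, so that both lines are on 1 scale.

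Of 10 neuroendocrine markers, 6 had a mean normalised count of at least 10 in 22RV1 and 4 in DU145. INSM1 had no read in any of the 8 libraries. A floor of 3 counts corresponds to 0.118 reads per 1000000 counts in the shallowest of them. NCAM1 (chromosome 11, 112961275 to 113278436) had 3, 0, 5 and 2 reads in the 22RV1 libraries and 1, 1, 3 and 1 in the DU145 libraries. NEUROD1, a neural lineage factor of many neuroendocrine tumours, had a mean normalised count of 1.03 in 22RV1 and 0.311 in DU145. NCAM1 and the transcription factors INSM1 and NEUROD1 were therefore at or near 0 in both lines. Among the members, the neuroendocrine part of the name rests on CHGA, CHGB, SYP and ENO2 in 22RV1. In DU145 it rests on CHGA, SYP and ENO2, with between 2 and 27 CHGA reads per library. The remaining markers that reached a mean of 10 are no members: SCG3 and DLL3 in 22RV1 and DLL3 in DU145.

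On the scale of reads per kilobase of exon per 1000000 counts, which allows levels of different genes to be compared, the order in 22RV1 was NELL2 (mean of 4 libraries 28.6), ENO2 (24.0), SYP (11.5), REST (10.2), CHGB (6.20), CNTNAP2 (0.705) and CHGA (0.431). In DU145 the order was ENO2 (8.66), REST (7.81), NELL2 (1.66), SYP (0.237), CHGA (0.160), CNTNAP2 (0.145) and CHGB (0.0140). REST was thus the second most abundant of the 9 in DU145 and the fourth in 22RV1. The ranges over libraries overlapped between NELL2 and ENO2, between SYP and REST, between CNTNAP2 and CHGA in 22RV1, and between ENO2 and REST and among SYP, CHGA and CNTNAP2 and between CHGA and CHGB in DU145, so these neighbours are not ordered beyond their spread. Among genes with a read, NELL2 lay at the 94.7 percentile of 24667 genes in 22RV1 and at the 58.1 percentile of 23348 genes in DU145, SYP at 84.9 and 36.4, and CHGB at 75.4 and 11.1.

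**Figure D1:**
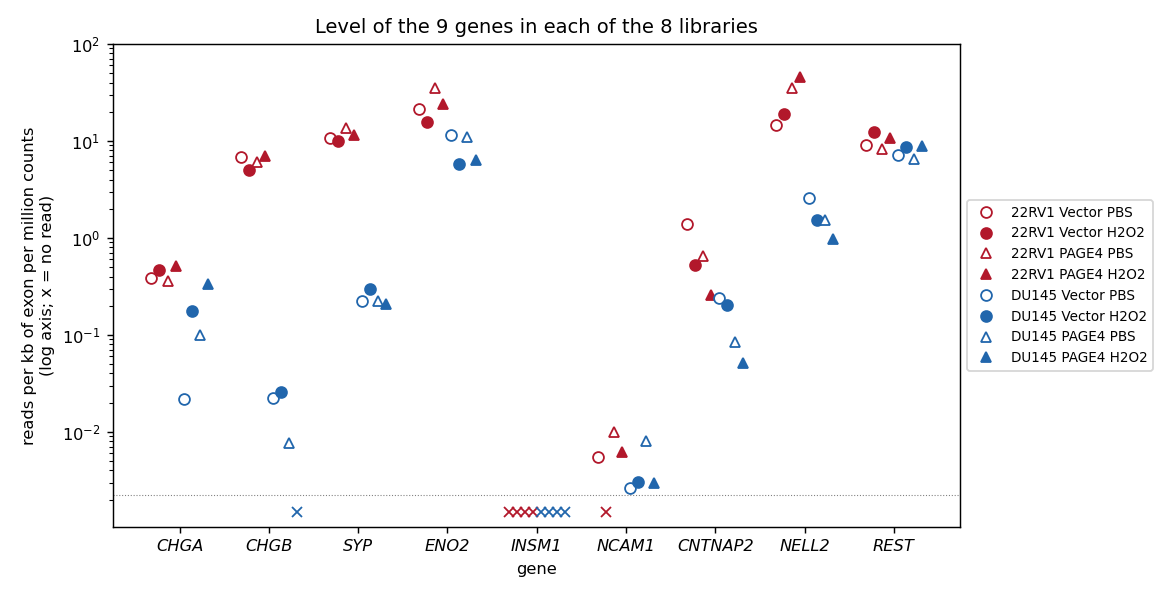
Level of each gene in each library, in reads per kilobase of exon per 1000000 counts on a log axis. Colour gives the line, shape the construct and filling the treatment, and a cross under the dotted line marks a library with no read. CHGB, SYP and NELL2 are separated by line, REST is not, and INSM1 has no read in any library.

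The sharpest contrasts were between the lines. CHGB, SYP, NELL2 and ENO2 were higher in every 22RV1 library than in every DU145 library, no member was lower throughout, and CHGA, CNTNAP2 and REST overlapped. Of 19935 genes with a mean normalised count of at least 10 over the 8 libraries, 28.7% were higher in every 22RV1 library and 26.2% lower, and the 4 members are to be read against these shares. The set was chosen with this contrast in view, so its count says nothing about neuroendocrine genes at large.

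CHGB, the secretogranin that shares the granule matrix with CHGA, lies on chromosome 20 from 5911510 to 5925353 (GRCh38, GENCODE release 44). Its raw count was 1304 in 22RV1 Vector PBS, 768 in Vector H2O2, 1053 in PAGE4 PBS and 792 in PAGE4 H2O2, against 3, 3, 1 and 0 in the DU145 libraries in the same order. All 4 DU145 values were at or under the floor of 3 counts, and their read totals of 3917 and 7 give a 383-fold difference with a 95% counting interval of 186 to 953. This interval and all others given here cover counting error only.

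SYP, an integral membrane protein of synaptic vesicles on chromosome X (49187815 to 49200218), had normalised counts of 2227, 1883, 2910 and 2254 in 22RV1 and of 52.7, 67.5, 52.1 and 47.3 in DU145. The lowest 22RV1 value was far above the highest DU145 value, and the summed reads differed 42.4-fold (36.7 to 49.3). NELL2, on chromosome 12 from 44508275 to 44921848, had 2776, 3292, 6938 and 8050 in 22RV1 and 564, 319, 328 and 207 in DU145. The PAGE4 libraries were the highest of the 22RV1 group, and the summed NELL2 reads differed 13.8-fold between the lines (13.1 to 14.7).

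ENO2, the neuronal enolase of glycolysis, lies on chromosome 12 from 6913745 to 6923698. Its normalised count was 2738, 1823, 4565 and 2828 in 22RV1 and 1657, 816, 1562 and 903 in DU145. The groups did not overlap, but the highest DU145 value was close to the lowest 22RV1 value and the summed reads differed 2.39-fold (2.31 to 2.47). Its paralogs showed the opposite order per length: ENO1, the enolase of most tissues, was at 186 reads per kilobase of exon per 1000000 counts in 22RV1 and 510 in DU145, and ENO3, the muscle enolase, at 1.74 and 3.96.

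CNTNAP2 spans chromosome 7 from 146116002 to 148420998 and had 676, 229, 326 and 118 normalised counts in 22RV1 and 133, 109, 46.4 and 27.4 in DU145. The ranges overlapped, because 22RV1 PAGE4 H2O2 lay under DU145 Vector PBS, but each of the 4 matched pairs of libraries was higher in 22RV1, by 1.07 to 2.80 on the log2 scale. CHGA, on chromosome 14 from 92923150 to 92935285, had 34.4, 37.5, 33.4 and 43.6 in 22RV1 and 2.24, 17.5, 10.2 and 33.6 in DU145, so DU145 PAGE4 H2O2 reached the 22RV1 range. In a mixed RNA sample, fewer cells that express a gene and less RNA per cell cannot be told apart, and this holds for each low level given here.

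REST, on chromosome 4 from 56907876 to 56966808, was nearly level between the lines when scaled by size factors. Its normalised count was 2551, 3145, 2385 and 2820 in 22RV1 and 2263, 2683, 2067 and 2727 in DU145. The matched ratios of 22RV1 to DU145 lay between 1.03 and 1.17, and the summed reads gave 1.12 (1.09 to 1.15). Only 0.861% of its annotated exon bases overlap another gene, the antisense gene NOA1. The counts sum all transcripts of a gene, so full-length REST and its truncated transcript cannot be told apart in these tables.

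The genes around REST were described from lists chosen with earlier results of these data known, and tested in 1 edgeR quasi-likelihood fit over all genes with Benjamini-Hochberg adjustment. The model held no interaction of PAGE4 and H2O2, so its 2 residual degrees of freedom are that interaction in each line together with noise. Without replicate cultures the 2 cannot be separated, and the p-values measure this spread among these libraries. Between the lines, 40.4% of 19784 genes tested were higher in 22RV1 and 36.3% lower, so a call there is the usual case. Of 83 listed genes that are no members, 69 were tested, with 37 higher and 29 lower. Among 13 tested textbook REST targets, 10 were higher in 22RV1 and 2 lower (BDNF and TUBB3), with a median log2 fold change of 3.31 against 0.07 over all genes. The REST complex and its regulators divided evenly, with 6 of 12 higher, 5 lower and a median of 0.18.

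SRRM4 was the exception among those regulators. Its raw count was 11442, 4094, 10305 and 5198 in the 22RV1 libraries and 5, 9, 5 and 3 in the DU145 libraries, a 965-fold difference in summed reads (637 to 1540). The edgeR log2 fold change was 9.86 with a standard error of 0.18 (adjusted p = 2.3e-20, edgeR quasi-likelihood test). RCOR1, the corepressor that bridges REST to histone demethylase, was lower in 22RV1 by contrast, with mean normalised counts of 1784 and 2591 (log2 fold change -0.50, SE 0.07).

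Some vesicle, adhesion and neuropeptide genes had the pattern of CHGB and SYP. Of 10 tested vesicle genes, 6 were higher in 22RV1 and 4 lower, against 40.4% and 36.3% of all genes tested. SYT4, a vesicle calcium sensor, had between 3989 and 7688 reads in 22RV1 and between 1 and 4 in DU145. NCAM2, the paralog of NCAM1, had between 460 and 1450 reads in 22RV1 and 1 read in all of DU145, although NCAM1 itself was near 0 in both. ADCYAP1, a neuropeptide gene, had 92, 226, 124 and 277 reads in 22RV1 and none in DU145. Set against the floor of 3 counts over the DU145 group, it was 164-fold higher in 22RV1. The lower end of the exact counting interval for its summed reads was 133-fold.

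Other listed genes, not all of them neuronal, had the opposite order. UCHL1, a neuronal ubiquitin hydrolase also used as a neuroendocrine marker, had between 25499 and 29704 reads in DU145 and between 53 and 146 in 22RV1, and its summed reads were 423-fold higher in DU145 (383 to 469). FOXA2, a pioneer factor of endoderm, was 176-fold higher in DU145 (74.9 to 543), SYN2, a synapsin, 47.7-fold (26.3 to 96.4) and NEFM, a neurofilament subunit, 60.9-fold (33.7 to 123). DU145 was thus not uniformly lower for neural genes: 6 of the 8 tested genes for neuronal enzymes and cytoskeleton were lower in 22RV1, and 5 of 7 tested granule genes were higher.

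**Figure D2:**
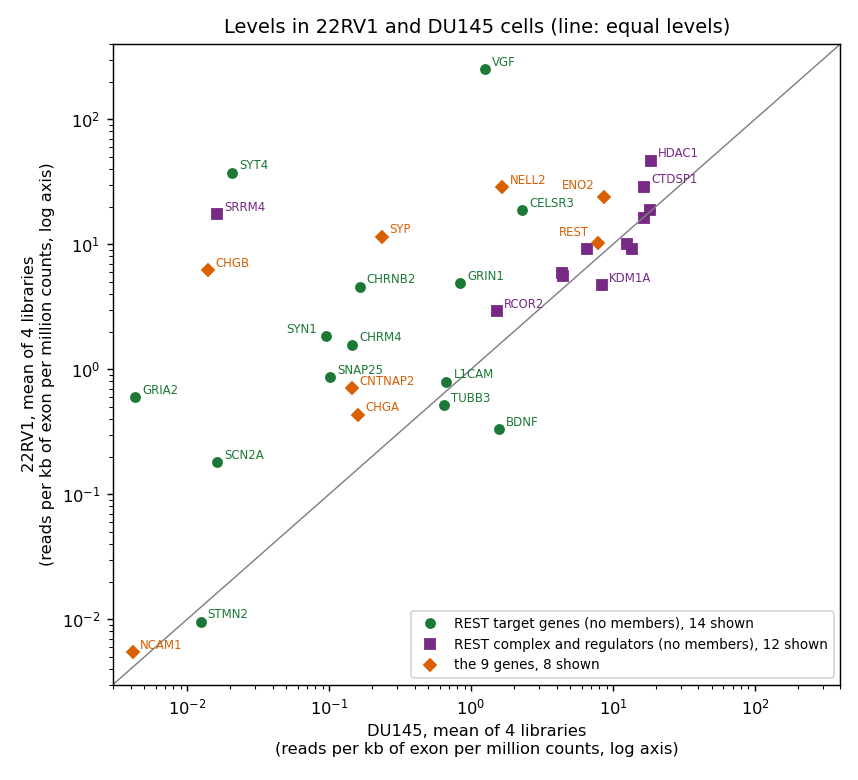
Mean level over the 4 libraries of each line, in reads per kilobase of exon per 1000000 counts, with DU145 on the x axis and 22RV1 on the y axis, both log, and a line of equal levels. REST and most genes of its complex lie near the line, while SRRM4, CHGB, SYP and most REST targets lie above it; only some of the complex genes are named, and INSM1 cannot be drawn at 0.

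With H2O2, ENO2 was lower in each of the 4 cultures, and CNTNAP2 was lower in each culture with the larger difference in 22RV1. NELL2 was lower in DU145 and slightly higher in 22RV1, CHGA was higher in DU145 from very few reads, and REST was slightly higher in each culture. A member was counted when it differed by more than 1.5-fold between H2O2 and PBS in the same line and construct, at a mean normalised count of at least 10 in the line.

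In 22RV1 Vector cells, 0 of 7 members above that minimum were counted higher and 2 lower, against 15.6% higher and 20.9% lower of 19444 genes. In 22RV1 PAGE4 cells the members counted were again 0 and 2, against 13.6% and 15.4%. In DU145 Vector cells 1 of 6 members was higher and 2 lower, against 18.8% and 22.8% of 18784 genes. In DU145 PAGE4 cells 1 was higher and 3 lower, against 18.8% and 23.6%. These counts were part of what was known when the genes were chosen, and the members that passed the minimum are 7 of 9 in 22RV1 and 6 of 9 in DU145.

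ENO2 normalised counts went from 2738 with PBS to 1823 with H2O2 in 22RV1 Vector cells and from 4565 to 2828 in 22RV1 PAGE4 cells, and from 1657 to 816 and from 1562 to 903 in the corresponding DU145 cells. The log2 folds were -0.59 (-0.66 to -0.51), -0.69 (-0.76 to -0.62), -1.02 (-1.16 to -0.89) and -0.79 (-0.92 to -0.66). No counting interval reached 0, but both 22RV1 values were close to the limit. Scaled by total counts they were -0.44 and -0.56, both under 1.5-fold, and the Vector value was also under it, at -0.55, with size factors computed within the line.

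CNTNAP2 went from 676 to 229 in 22RV1 Vector cells, a log2 fold of -1.56 (-1.75 to -1.37), and from 326 to 118 in 22RV1 PAGE4 cells, -1.47 (-1.79 to -1.16). In DU145 the values were 133 and 109 in Vector cells, -0.29 (-0.71 to 0.12), and 46.4 and 27.4 in PAGE4 cells, -0.75 (-1.58 to 0.02). Both DU145 intervals include 0, so a difference there was not detectable at this depth.

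NELL2 showed opposite signs in the lines. It was 564 with PBS and 319 with H2O2 in DU145 Vector cells, a log2 fold of -0.82 (-1.05 to -0.60), and 328 and 207 in DU145 PAGE4 cells, -0.67 (-0.95 to -0.39). In 22RV1 it was 2776 and 3292 in Vector cells, 0.25 (0.18 to 0.31), and 6938 and 8050 in PAGE4 cells, 0.21 (0.17 to 0.26). The difference between the lines was not tested.

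CHGA in DU145 rested on 2 raw reads with PBS and 14 with H2O2 in Vector cells, and on 9 and 27 in PAGE4 cells. The log2 folds were 2.71 (0.84 to 6.14) and 1.67 (0.59 to 2.99), wide intervals that lie above 0. In 22RV1 the reads were 50 and 48 in Vector cells and 43 and 40 in PAGE4 cells, with folds of 0.12 (-0.48 to 0.73) and 0.38 (-0.27 to 1.04), and no difference was detectable.

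SYP and CHGB encode a vesicle and a granule protein. SYP log2 folds were -0.24 (-0.32 to -0.17) and -0.37 (-0.45 to -0.29) in 22RV1 Vector and PAGE4 cells, and 0.35 (-0.23 to 0.95) and -0.14 (-0.80 to 0.51) in DU145. CHGB was 896 and 600 in 22RV1 Vector cells, -0.58 (-0.71 to -0.45), and 818 and 863 in 22RV1 PAGE4 cells, 0.08 (-0.06 to 0.21). The first value lay just inside the 1.5-fold limit, the intervals of the 22RV1 cultures were apart, and in DU145 its reads were too few for a fold. REST was above its PBS value in all 4 cultures, with log2 folds of 0.30 (0.24 to 0.37), 0.24 (0.17 to 0.32), 0.25 (0.16 to 0.33) and 0.40 (0.31 to 0.49), all under the 1.5-fold limit.

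**Figure D3:**
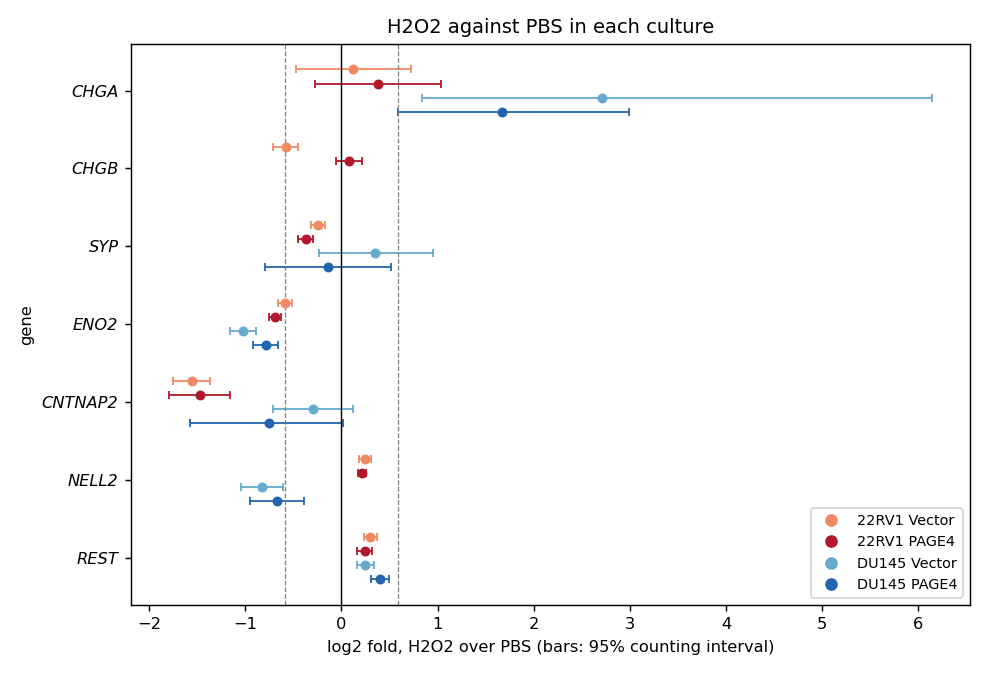
log2 fold of H2O2 over PBS for the 7 members with reads to compare, 1 point per culture, with 95% counting intervals as bars and dashed lines at 1.5-fold. ENO2 lies left of 0 in all 4 cultures, CNTNAP2 lies farthest left in 22RV1, and NELL2 lies right of 0 in 22RV1 and left of it in DU145.

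Among the listed genes that are no members, 10 of 69 rose and 22 fell with H2O2 in 22RV1, where 15.2% of all genes tested rose and 16.9% fell. In DU145 9 rose and 16 fell, where 19.2% rose and 22.8% fell. The neural adhesion and guidance list had 2 of 13 tested genes higher and 8 lower in 22RV1, with a median log2 fold change of -0.82 against -0.01 over all genes, and 0 higher and 3 lower in DU145, with a median of 0.13. DESeq2's Wald test called 1 gene of this list higher and 6 lower in 22RV1. CNTN2, CNTNAP3 and CNTNAP5 were lost there when 1 or another of the 22RV1 libraries was left out. In DU145, 1 of the 13 was higher at an unadjusted p under 0.05 in edgeR and 0 were by DESeq2's Wald test. A luminal marker was lower with H2O2 as well: the normalised count of KLK3 was 701 with PBS and 111 with H2O2 in 22RV1 Vector cells and 748 and 214 in 22RV1 PAGE4 cells, and the part of luminal markers in the 22RV1 values was not tested.

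CNTN2, a contactin that binds CNTNAP2 on axons, had 111 reads with PBS and 27 with H2O2 in 22RV1 Vector cells and 70 and 20 in PAGE4 cells, and fell by 1.57 on the log2 scale (SE 0.47, adjusted p = 0.014, edgeR quasi-likelihood test). The neural factor POU3F2 fell by 1.46 and the granule membrane protein PTPRN2 by 1.39. In the other direction, the NELL2 receptor ROBO3 rose from 6 to 30 and from 9 to 46 reads, a log2 fold change of 2.70 (SE 0.37). CALCA and ADCYAP1, both neuropeptide genes, rose by 1.59 each, and SCG5, a chaperone of prohormone convertase, by 1.91. Of the 32 listed genes called with H2O2 in 22RV1, 21 were still called without 22RV1 Vector PBS and 20 without 22RV1 Vector H2O2. CNTN2 and SCG5 were lost without either of these libraries, CNTN2 also without 22RV1 PAGE4 PBS, and SCG5 also with DESeq2's Wald test, which lost 6 of the 32 and gave CNTN2 no adjusted p.

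In DU145, CNTN1, a contactin of axons, had 16181 reads with PBS and 3656 with H2O2 in Vector cells and 13068 and 2901 in PAGE4 cells, and fell by 2.04 (SE 0.11, adjusted p = 3.4e-11, edgeR quasi-likelihood test). The sodium channel gene SCN2A fell by 2.55 from at most 27 reads, the microtubule protein MAPT by 1.64 and the adhesion gene CADM1 by 1.32. VGF, a granin-like peptide precursor, rose by 1.66, the syntaxin STX1A by 1.63, the synapsin SYN1 by 2.79 (SE 0.60) and NEFM by 1.03. SYN1 had 2 and 3 reads with PBS and 19 and 14 with H2O2, so few reads carry that value. Of the 25 listed genes called with H2O2 in DU145, 14 or 15 were still called whichever DU145 library was left out, and DESeq2's Wald test lost 5. SCN2A was lost without DU145 Vector PBS or Vector H2O2, and NEFM without PAGE4 PBS or PAGE4 H2O2 and with DESeq2's Wald test.

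Around REST, 4 of 12 complex genes and regulators fell in 22RV1 and 0 rose, while 2 rose and 5 fell in DU145, against 15.2% of all genes that rose and 16.9% that fell in 22RV1, and 19.2% and 22.8% in DU145. DESeq2's Wald test called 4 lower in 22RV1, and 2 higher and 3 lower in DU145. At an unadjusted p under 0.05 in edgeR 1 of the 12 was higher in 22RV1, which was RCOR1, and DESeq2 called 0 higher. CTDSP1, EHMT2 and HDAC1 fell in both lines, but CTDSP1 in DU145 was lost with DESeq2, with no filter and whichever DU145 library was left out, and HDAC1 in 22RV1 without Vector PBS, Vector H2O2 or PAGE4 PBS. SRRM4 fell by 0.87 in 22RV1 (SE 0.13, adjusted p = 2.4e-05, edgeR quasi-likelihood test). RCOR1 rose by 0.59 in DU145 (SE 0.09), while in 22RV1 its log2 fold change was 0.21 with an adjusted p of 0.096 (edgeR quasi-likelihood test).

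Between PAGE4 cells and vector cells, NELL2 was the member with opposite signs past the 1.5-fold limit in the lines: it was higher in 22RV1 PAGE4 cells and lower in DU145 PAGE4 cells. CNTNAP2 was lower with PAGE4 in both lines and both treatments, ENO2 was higher in 22RV1 and near level in DU145, and REST was near level throughout. In 22RV1, 2 of 7 members were counted higher and 1 lower with PBS, against 7.48% and 10.4% of genes, and 2 and 1 with H2O2, against 11.0% and 10.4%. In DU145, 1 of 6 was higher and 2 lower with PBS, against 8.25% and 8.69%, and 1 and 2 with H2O2, against 7.69% and 9.24%. The genes were chosen with these folds in view, and comparisons in the same line share their libraries with those of H2O2.

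NELL2 was 2776 in vector cells and 6938 in PAGE4 cells in 22RV1 with PBS, a log2 fold of 1.32 (1.27 to 1.38), and 3292 and 8050 with H2O2, 1.29 (1.24 to 1.35). In DU145 it was 564 and 328 with PBS, -0.78 (-0.99 to -0.57), and 319 and 207 with H2O2, -0.62 (-0.92 to -0.34). The 22RV1 values thus lay above 0 and the DU145 values under it in both treatments, with counting intervals far apart, but 1 transduced culture stands behind each level and the difference was not tested.

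CNTNAP2, which also belongs to the genes that shifted with PAGE4 in both lines, was 676 in vector cells and 326 in PAGE4 cells in 22RV1 with PBS, -1.05 (-1.22 to -0.88), and 229 and 118 with H2O2, -0.96 (-1.29 to -0.64). In DU145 it was 133 and 46.4 with PBS, -1.51 (-2.07 to -1.0), and 109 and 27.4 with H2O2, -1.97 (-2.74 to -1.30). All 4 values were past the limit. In both lines the library with PAGE4 and H2O2 was the lowest of its 4.

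ENO2 was 2738 and 4565 in 22RV1 vector and PAGE4 cells with PBS, 0.74 (0.68 to 0.80), and 1823 and 2828 with H2O2, 0.63 (0.55 to 0.71). In DU145 the folds were -0.09 (-0.19 to 0.02) and 0.15 (-0.01 to 0.30), and both intervals include 0. In 22RV1 PAGE4 cells with H2O2, ENO2 was therefore near the level of vector cells with PBS.

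SYP was slightly higher in 22RV1 PAGE4 cells, with 0.39 (0.32 to 0.45) with PBS and 0.26 (0.17 to 0.34) with H2O2, and in DU145 its folds of -0.02 (-0.63 to 0.60) and -0.51 (-1.15 to 0.11) could not be told from 0. CHGB in 22RV1 gave -0.13 (-0.25 to -0.01) with PBS and 0.52 (0.38 to 0.67) with H2O2. CHGA in DU145 gave 1.96 (-0.09 to 5.43) and 0.92 (-0.04 to 1.99), counted as higher by the fold but with intervals that include 0. REST gave -0.10 (-0.17 to -0.03) and -0.16 (-0.23 to -0.09) in 22RV1 and -0.13 (-0.22 to -0.04) and 0.02 (-0.06 to 0.11) in DU145.

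**Figure D4:**
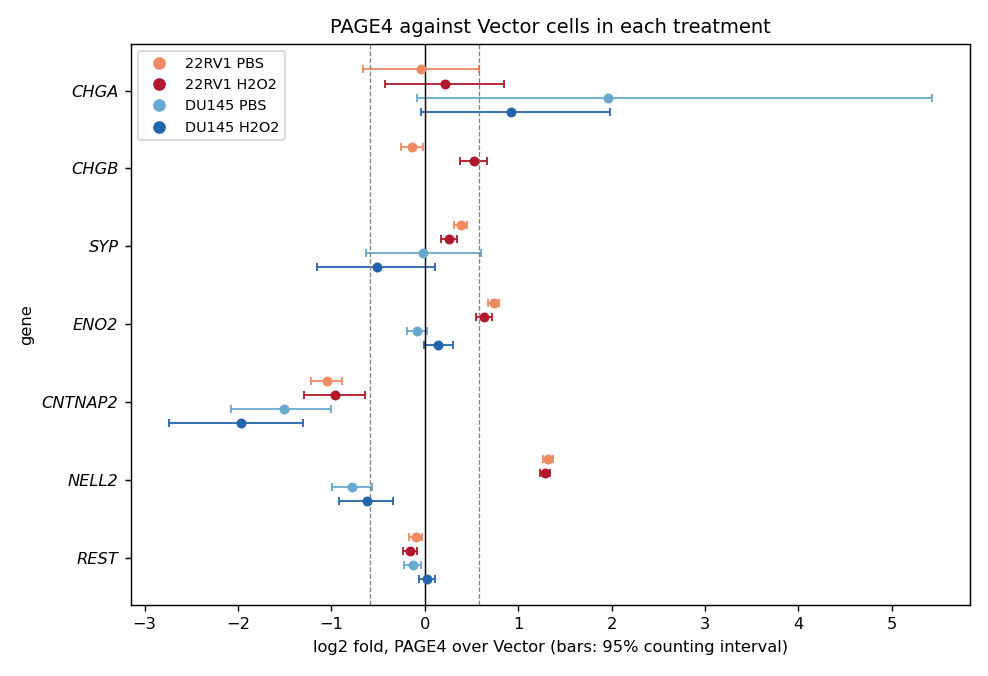
log2 fold of PAGE4 cells over vector cells for the 7 members with reads to compare, 1 point per line and treatment, with 95% counting intervals as bars and dashed lines at 1.5-fold. NELL2 lies right of 0 in 22RV1 and left of it in DU145, CNTNAP2 lies left of the lower limit in all 4 pairs, and REST lies near 0.

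Of the 69 listed genes tested, 9 rose with PAGE4 in 22RV1 and 0 fell, where 2.51% of all genes rose and 2.69% fell (edgeR quasi-likelihood test, Benjamini-Hochberg adjusted p under 0.05). At an unadjusted p under 0.05 in edgeR, 4 of the 69 were lower, and DESeq2's Wald test called 0 lower. The 9 included 6 of 13 tested REST targets, with a median log2 fold change of 0.33 against -0.01 over all genes. These were L1CAM (1.20, SE 0.24), GRIA2 (1.03, SE 0.24), CHRNB2 (0.60, SE 0.16), GRIN1 (0.49, SE 0.12), VGF (0.45, SE 0.08) and CELSR3 (0.33, SE 0.08), which encode an adhesion molecule, a glutamate receptor subunit, a nicotinic receptor subunit, an NMDA receptor subunit, a peptide precursor and a cadherin. CNTN1 (0.80, SE 0.16) and SCG3, a granin (0.59, SE 0.13), were also among the 9.

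L1CAM had 122 and 139 reads in 22RV1 vector cells with PBS and H2O2 and 220 and 267 in PAGE4 cells, so the vector and PAGE4 libraries did not overlap. Without the 22RV1 Vector H2O2 library 1 of the 9 was still called, and without 22RV1 PAGE4 H2O2 5 were. DESeq2's Wald test called 6 of the 9.

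In DU145, 1 of 69 listed genes rose with PAGE4 and 1 fell, where 0.227% of all genes rose and 0.096% fell. NTS, the neurotensin precursor, had 15 and 11 reads in vector cells and 147 and 59 in PAGE4 cells, with a log2 fold change of 2.89 (SE 0.56, adjusted p = 0.03, edgeR quasi-likelihood test). SV2A, a synaptic vesicle protein, fell by 0.72 (SE 0.15) from 343 and 288 to 200 and 181 reads. Neither was called by DESeq2's Wald test. Of the 13 REST targets tested, edgeR called 0 in DU145, with a median of 0.04, and DESeq2 called 0. At an unadjusted p under 0.05, 1 was higher in edgeR, which was VGF with a log2 fold change of 0.63 (SE 0.17).

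**Figure D5:**
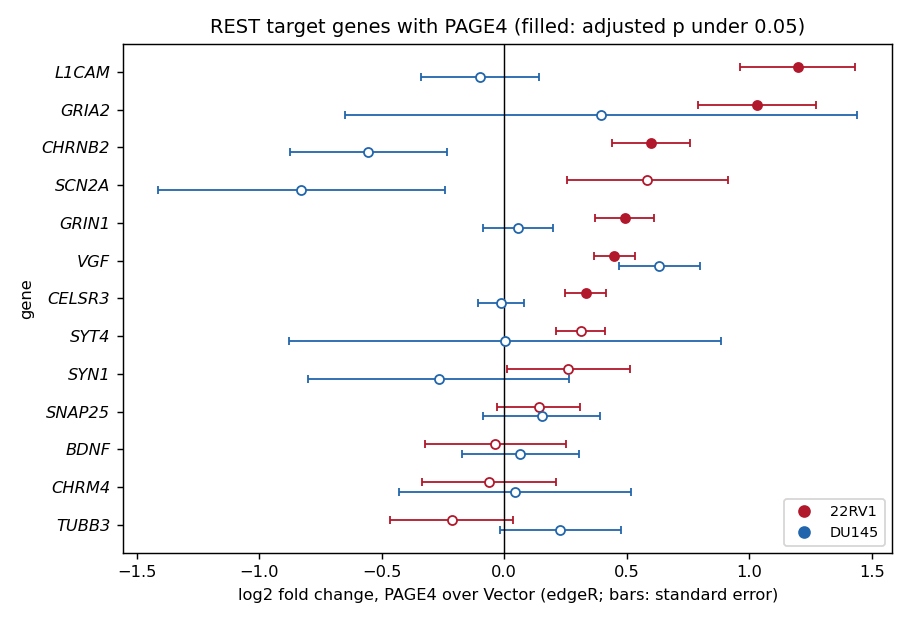
edgeR log2 fold change of PAGE4 over vector cells for the 13 tested REST target genes that are no members, with standard errors as bars and filled points for an adjusted p under 0.05. The 6 filled points are all in 22RV1 and to the right of 0, and no DU145 point is filled.

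Across the 8 libraries, with the mean of each line subtracted from log2 normalised counts, the genes most like each member by Pearson correlation were listed as a description. They were FAM95C, ADK and EIF2D for ENO2 (r of 0.991, 0.991 and 0.990), CRK, ZNF143 and BRAF for REST (0.994, 0.992 and 0.991) and RRAGD, ZNF32 and SBK1 for NELL2 (0.958, 0.954 and 0.948). SYP was most like TRMT2A, SMDT1 and LINC00624 (0.964, 0.961 and 0.952), CNTNAP2 most like RP11-54C4.3, CCDC183-AS1 and RP11-80P20.3 (0.962, 0.953 and 0.945), and CHGB most like HCG18, RP3-508I15.9 and ZNF347 (0.957, 0.944 and 0.935). Between 12387 and 12388 genes were compared over 8 points that share depth and treatment, and for CHGB the 4 DU145 points rest on 3 reads or fewer.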

How the data were processed

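The deposited values were raw counts per gene, in 1 table per cell line, which the authors made by mapping reads to GRCh38 with HISAT2 2.1.0 and counting them with featureCounts 1.6.0, per the submitters' processing notes. The annotation and strand setting were not given in the sources used here. The labels name Trizol and the study's methods a column kit for RNA extraction. Such counts depend on depth and gene length and carry no correction for either.

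Members and gene lists were chosen with earlier results of these data known. Counts were divided by DESeq2 1.42.0 size factors over all 8 libraries, so that levels in both lines share 1 scale, and levels between genes were compared as reads per kilobase of exon (GENCODE release 44) per 1000000 counts. Folds between 2 libraries used a pseudocount of 0.5, intervals were exact at 95% (Poisson for counts, Clopper-Pearson for ratios), and a member was counted past 1.5-fold, the limit in the study's methods, at a mean normalised count of at least 10. Listed genes were tested with edgeR 4.0.16 in R 4.3.3 (TMM, filterByExpr, quasi-likelihood test, Benjamini-Hochberg, limit 0.05) in a model with 6 coefficients: line, and PAGE4 and H2O2 within each line. The fit was also run on simulated counts without an interaction of PAGE4 and H2O2, so that run does not measure how reliable the p-values here are. Promoters came from a RefSeq table of GRCh38.p14, and motifs were searched by exact letters. The listed genes named were up to 4 past the limit per contrast and direction, plus those a count of 5 or fewer refers to; the remaining REST targets named with PAGE4, SRRM4, RCOR1, CTDSP1, EHMT2, HDAC1, ENO1 and ENO3 were named after their values were seen. The 3 genes most like each member were taken among genes with a mean of at least 50 in each line. Figures were drawn with matplotlib 3.10.9. The alternatives were other scalings, count minimums, folds and pseudocounts, DESeq2's Wald test, no filter, and each library left out. Some listed genes and markers are not reported here.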

Additional observations from a re-analysis of the deposited data

Results flagged for a closer look

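Effects that differed between the lines were looked for, as the difference of the H2O2 or PAGE4 effect in 22RV1 and in DU145. For members the difference was not tested. NELL2 had a mean H2O2 log2 fold 0.98 higher in 22RV1 than in DU145 and a mean PAGE4 log2 fold 2.01 higher, with both pairs above 0 in 22RV1 and both under 0 in DU145. SYP met the same description with PAGE4, with a mean difference of 0.58, although both DU145 intervals include 0.

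For listed genes that are no members, the difference was tested in the edgeR quasi-likelihood fit, with adjusted p under 0.05 for each gene named here. The H2O2 effect, as a log2 fold change in 22RV1 minus that in DU145, was -2.48 for SYN1, -1.46 for VGF, -1.10 for STX1A, -0.96 for PTPRN2, -0.83 for CELSR3, -0.80 for GRIN1, -0.78 for ENO3, -0.74 for HES6, -0.39 for RCOR1 and -0.35 for CTDSP1. It was 0.58 for SV2A, 0.64 for CNTNAP1, 0.73 for CNTN1, 0.99 for NKX2-1, 1.13 for MAPT, 1.51 for UCHL1, 1.58 for LHX2, 2.32 for ROBO3 and 2.85 for SCG5. These are 19 of 69 genes, 9 higher and 10 lower in 22RV1, where 2104 and 1754 of 19784 genes tested were. Of the 19, 13 were lost when 1 library or another was left out, and DESeq2's Wald test called 11 of them; 7 were lost and SCG5 had no adjusted p there. VGF and CELSR3, both REST targets, rose with H2O2 in DU145, while in 22RV1 the log2 fold change was 0.20 for VGF and -0.03 for CELSR3. Of the 13 tested REST targets, 3 rose in DU145 (VGF, CELSR3 and SYN1) and 1 fell (SCN2A). Over all genes tested, 19.2% rose and 22.8% fell there. In 22RV1, 1 REST target rose (TUBB3) and 4 fell (SCN2A, GRIA2, GRIN1 and SYT4), against 15.2% and 16.9% of all genes.

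The PAGE4 effect differed by 1.12 for CNTN1 and by 1.30 for L1CAM, both higher in 22RV1. Neither was called by DESeq2's Wald test, and L1CAM was lost when 1 library or another was left out.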

How the results depend on the processing

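No replicate cultures exist, so the limits are counting error and single libraries; with under 10 reads, as for CHGA in DU145 with PBS, a fold can be known only within a wide interval, and CHGB in DU145, NCAM1 and INSM1 give none. Of 208 recomputed values of the 52 member folds, 199 moved by less than their counting interval, 9 moved and 0 changed sign. All 9 came from scaling by total counts with H2O2 in 22RV1, which shifts all log2 folds by 0.15 (Vector) and 0.13 (PAGE4) and leaves ENO2 at -0.44 and -0.56. With a fold over 2, 1 member was counted with H2O2 in 22RV1 Vector, 22RV1 PAGE4 and DU145 PAGE4 cells and 1 with PAGE4 in 22RV1 and in DU145 under H2O2. With no count minimum, 5 were counted with PAGE4 in DU145 under PBS. The share of all genes past the limit ran from 16.9% to 42.4% over the comparisons, from 38.8% to 54.3% with no minimum and from 5.37% to 36.2% with a mean of at least 50.

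Over all genes, leaving out each library in turn gave 3522 to 6217 genes with H2O2 in 22RV1 (6342 with all 8), 5125 to 9278 with H2O2 in DU145 (8299), 623 to 1442 with PAGE4 in 22RV1 (1029) and 10 to 396 with PAGE4 in DU145 (64). The lowest PAGE4 count in 22RV1 was without Vector H2O2. With no filter 217 genes were called with PAGE4 in DU145, and DESeq2's Wald test called 636 with PAGE4 in 22RV1. Of the 9 listed genes called with PAGE4 in 22RV1, 8 were still called without Vector PBS, 1 without Vector H2O2, 7 without PAGE4 PBS and 5 without PAGE4 H2O2, and 9 without any 1 DU145 library. NTS and SV2A were both lost without DU145 Vector PBS, PAGE4 PBS or PAGE4 H2O2. H2O2 was fitted within matched constructs and PAGE4 within matched treatments, and no further replicate block could be fitted, since each condition has 1 library and the labels give no replicate numbers.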
